A study of Mus musculus with 3 samples.

Results

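The genes described here encode the factors that start, extend and support protein synthesis in the cytosol: eukaryotic initiation factors (eIF), elongation factors (eEF), cytoplasmic poly(A)-binding proteins (PABPC), their partners (PAIP), the release factor eRF3 (Gspt genes) and the DENR-MCTS pair. A gene was included when a probe set named it alone and its symbol on the array began with Eif or Eef and a digit, or with Pabpc, Paip, Gspt, Denr or Mcts, leaving out the Y-linked Eif2s3y and older Argonaute names. This gave 75 of 19938 named genes, through 86 probe sets. Relatives without a probe set of their own were not analysed here. RNA came from the testes of wild type male BALB/c mice aged 30 days, in 3 samples labelled as spermatids, the haploid cells after meiosis, and was read on the Affymetrix Mouse Gene 1.0 ST array. There was 1 group, with no treatment and no control. The tubules were minced, homogenised and strained to loose cells, with no sorting step in the labels, and nothing there ties the replicates to separate animals, so the spread between arrays may be technical.

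Initiation begins when eIF4E binds the mRNA cap and joins the scaffold eIF4G and the helicase eIF4A, while eIF2 and eIF3 bring the initiator tRNA and the small ribosomal subunit. PABPC proteins on the poly(A) tail bind eIF4G and bridge both ends of the mRNA, PAIP1 favours this bridge and PAIP2 proteins hold PABPC back. In spermatids transcription stops as the chromatin condenses, and many mRNAs are stored for days before they are translated, so that these factors are of particular interest in male germ cells.

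Short stretches around annotated transcription starts, from RefSeq on GRCm38.p6, are shown for 5 members because translation factor mRNAs are known for a pyrimidine tract at their very 5′ end, and because the testis activator CREM binds the sequence TGACGTCA. Each line has 30 bases, and capitals mark pyrimidines from the first C within 2 bases of the annotated start to the end of the run, or in Eef2 the letters TGACGTCA. Lower-case pyrimidines just before the capitals belong to the same run but lie further upstream of the start. Eef1a1 is at chr9:78481710-78481739 (minus strand), Paip1 at chr13:119428585-119428614 (plus), Eif2s3x at chrX:94212637-94212666 (minus), Eif3f at chr7:108934400-108934429 (plus) and Eef2 at chr10:81176622-81176651 (plus).
Eef1a1: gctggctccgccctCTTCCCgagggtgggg
Paip1: accgtcagtctcgcaCTTTTCTCCggaggg
Eif2s3x: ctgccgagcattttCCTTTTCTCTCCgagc
Eif3f: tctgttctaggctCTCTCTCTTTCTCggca
Eef2: aggccgggcgtTGACGTCAgcggtctcttc
Counted in this way, the marked stretches of Paip1, Eif2s3x and Eif3f were 9, 12 and 13 bases long, and that of Eef1a1 6 bases. Whether transcription begins at these annotated starts in these cells was not tested. The marked stretches, that of Eef1a1 among them, are therefore not shown to be the 5′ end of the mRNA.

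Values below are log2 levels from RMA (robust multichip average), given with their SD over the 3 arrays. A gene was called above background when its mean lay above 7.98, the 95th percentile of 211 vomeronasal receptor and hair keratin associated protein genes, in a one-sided limma test whose p-values were adjusted over all named genes (Benjamini-Hochberg, 0.05). A gene not called is not shown to be absent, since the median of the background genes was lower at 4.77. Probes of different genes bind unequally, so the levels of 2 genes do not give the ratio of their RNA, and the order of members describes these arrays. Arrays correlated at 0.992 to 0.995 over 35556 probe sets (Pearson's r). Between 38.5% and 44.5% of the probe sets on an array had a value that another probe set of that array also had. Of the members 29 of 75 (38.7%) had equal values on all 3 arrays, against 46.0% of all named genes, and "tied" below means this, not an absence of error.

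Of marker lists, 16 of 16 elongating spermatid genes, 12 of 14 round spermatid genes (all but Tsga8 and Tssk6) and 13 of 13 pachytene spermatocyte genes were above background. For somatic cells the counts were 8 of 13 Sertoli, 7 of 9 Leydig, 5 of 12 peritubular, endothelial and stromal, and 4 of 9 blood and immune genes, where 36.6% of all named genes were called. The count was 5 of 15 for spermatogonia and 0 of 14 for genes of other tissues, all 14 of which had means below the level, so that limma called none before adjustment either. The Sertoli and Leydig shares were above that of all genes, while the peritubular, blood and spermatogonial shares were near it. List means on the 3 arrays ranged from 11.65 to 11.70 for elongating spermatids, from 8.72 to 8.73 for Sertoli cells and from 9.60 to 9.74 for Leydig cells. The part that each cell type had in the levels of translation factors was not tested, and in such a mixture fewer cells of a type and less RNA per cell cannot be told apart.

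Translation factor genes lay mostly above background and toward the upper end of all genes. Of 75 members 53 (70.7%) were called above background, beside 36.6% of all named genes. The median member level was 9.50, with 9.48, 9.48 and 9.62 on replicates 1, 2 and 3, and the median of all named genes was 7.45. The levels of 33 members exceeded those of every background gene, which 2595 of all named genes did. Above the stricter level of 9.16, the 99th percentile of the background genes, lay the means of 42 members (56.0%), beside 20.9% of all genes. Members that were called ranged from 8.03 to 13.11 and those not called from 5.41 to 8.10. Of the 53 called, 21 were tied and 32 untied. A tied gene shows no spread, so its call reflects only that its mean lay above the level. Thus Eif2b2, tied at 8.03, was called, whereas Eef1akmt2, untied at 8.10 ± 0.08, was not.

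**Figure D1:**
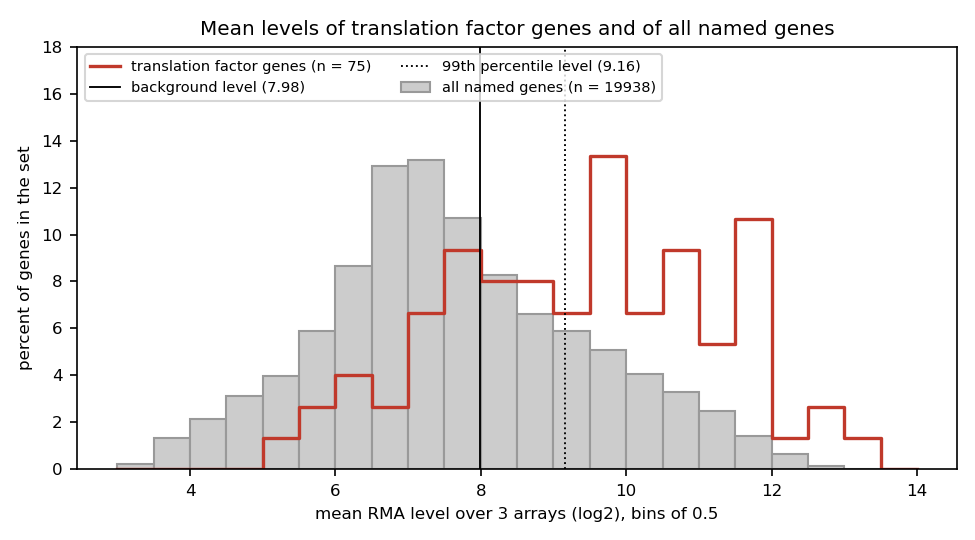
Percent of genes in each bin of mean RMA level (log2, bins of 0.5) for 75 translation factor genes (red line) and 19938 named genes (grey bars), with the background level of 7.98 (solid line) and the 99th percentile level of 9.16 (dotted line). The members' median of 9.50 lies to the right of the median of all genes, 7.45.

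**Figure D2:**
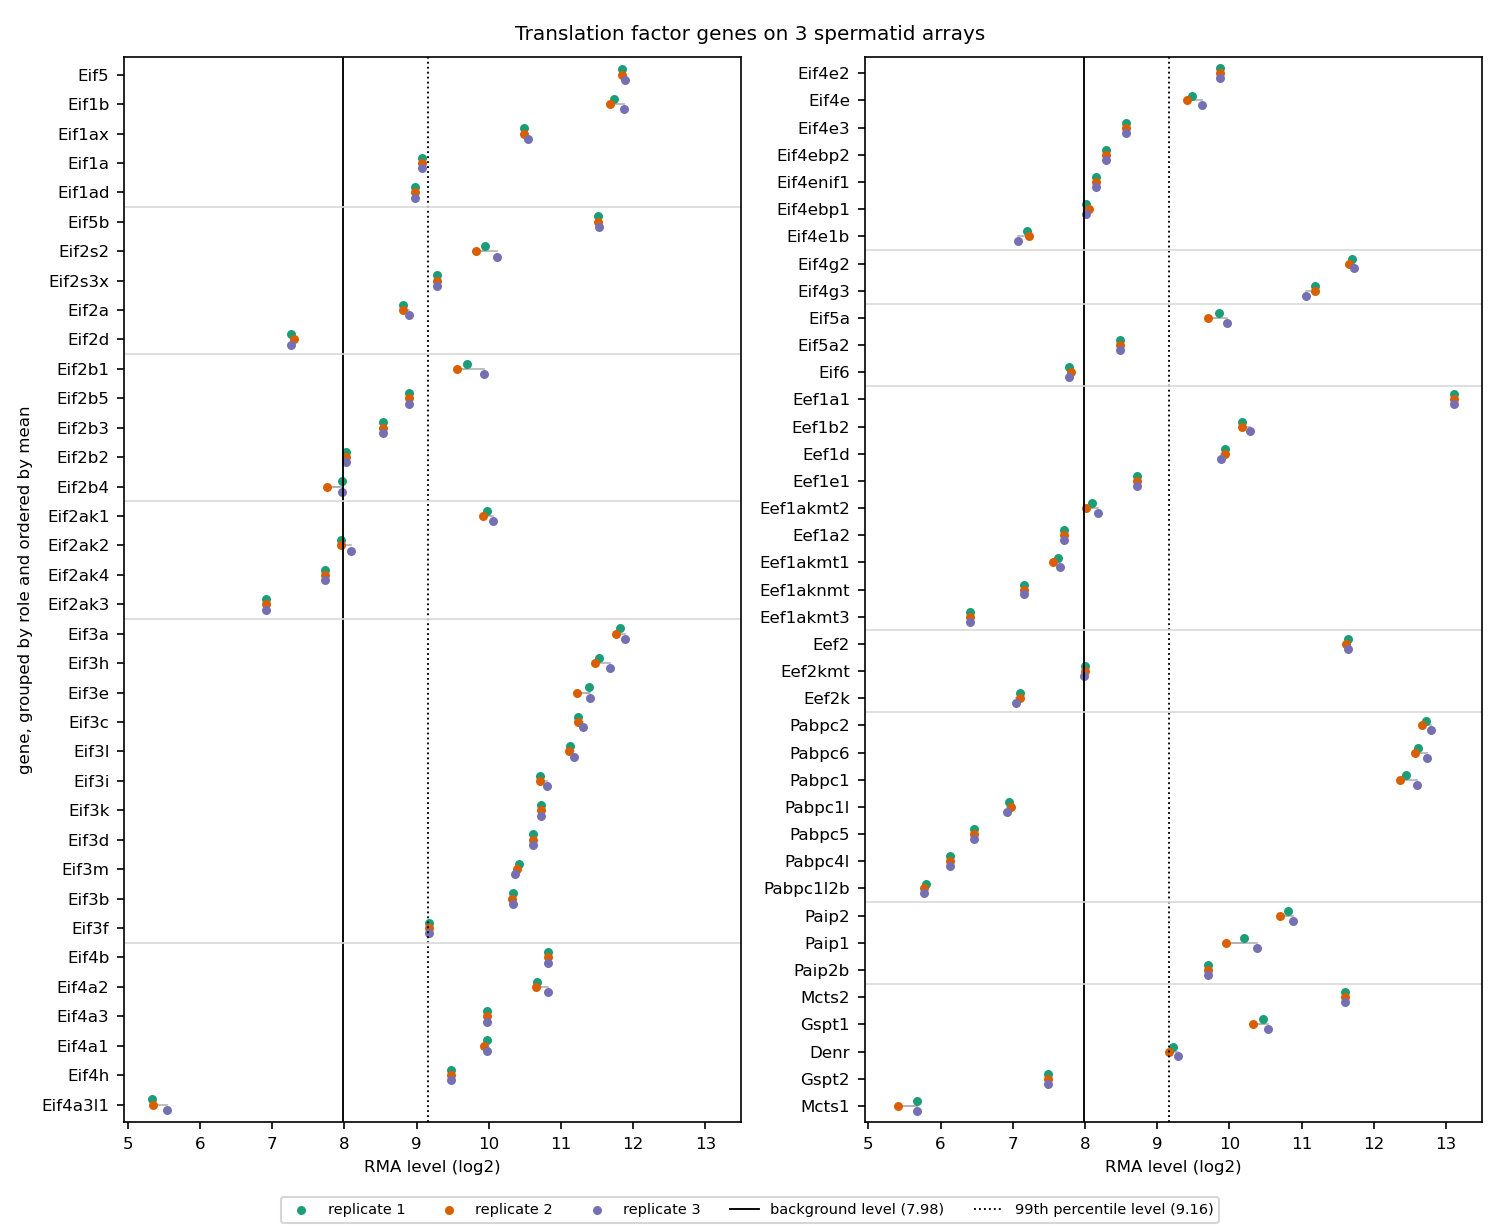
RMA level (log2, horizontal axis) of each of 75 translation factor genes on the 3 arrays (coloured points joined by a grey bar), grouped by role between horizontal lines and ordered by mean within a role. All 11 eIF3 genes lie right of the 7.98 line, while PABPC genes split into 3 above 12 and 4 below 7.

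Scanning and start codon factors were all above background, 5 of 5. This count and those of the other roles below stand beside 36.6% of all named genes. Eif5, whose product makes eIF2 hydrolyse its GTP at the start codon, was at 11.84, 11.84 and 11.89 on replicates 1, 2 and 3. Eif1b, a relative of the start codon factor eIF1, was at 11.74, 11.68 and 11.87. Both stood among the 12 highest members by mean. A probe set that names both Eif5 and Snora28 was at 5.22, and which of these genes it reads was not tested. With it added Eif5 was at 8.54 and still called. For eIF1A, which helps the ribosome scan, the X-linked Eif1ax was at 10.49, 10.49 and 10.54, and Eif1a on chromosome 18 was tied at 9.07, or 9.69 with probe sets shared with its copies added. Eif1ad, an eIF1A-like gene, was tied at 8.98.

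The genes of eIF2, of subunit joining and of related tRNA carriers were above background in 4 of 5 members. Eif5b, the GTPase that joins the large ribosomal subunit, was at 11.51, 11.51 and 11.53. The X-linked Eif2s3x, the gamma subunit of eIF2, was tied at 9.28. Eif2s2, the beta subunit, had a mean of 9.96 ± 0.14 (n = 3) from 2 probe sets that disagreed, described further on. Eif2a, an alternative carrier of initiator tRNA, was at 8.84 ± 0.04, whereas Eif2d at 7.27 ± 0.02 was not called.

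Of the 5 subunits of eIF2B, which reloads eIF2 with GTP, 4 were above background. Eif2b1 was at 9.70, 9.57 and 9.93, Eif2b5, the catalytic subunit, was tied at 8.90 and Eif2b3 at 8.53. Eif2b1 was called with all arrays (adjusted p = 0.0027, limma) and not without replicate 1 (mean 9.75, adjusted p = 0.0511, limma). Eif2b2 was tied at 8.03, close to the level. Eif2b4, at 7.96, 7.76 and 7.97, was lower than the level on each array and was not called.

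Of the 4 kinases that phosphorylate eIF2 alpha and so lower initiation, only Eif2ak1 was called above background. This 1 of 4 stands beside 36.6% of all named genes, and with so few genes it cannot be told from that share. Eif2ak1, the kinase known to respond to low haem, was at 9.97, 9.92 and 10.06, about 2.00 above the level (adjusted p = 0.000275, limma). The kinases for double-stranded RNA (Eif2ak2), amino acid lack (Eif2ak4) and unfolded protein in the endoplasmic reticulum (Eif2ak3) were not called. Eif2ak2 was at 7.95, 7.95 and 8.10, astride the level (adjusted p = 0.985, limma). Eif2ak4 was tied at 7.73 and Eif2ak3 at 6.91. With the lower olfactory receptor background level of 7.18 Eif2ak2 and Eif2ak4 were called as well, beside 55.0% of all genes, and Eif2ak3 was not.

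The eIF3 complex, the largest initiation factor and the platform between the ribosome and eIF4G, was above background in all 11 measured subunits, with a median of 10.75. Eif3a, its scaffold, was at 11.82, 11.76 and 11.88, and Eif3h was at 11.53, 11.47 and 11.68. Eif3e, Eif3c and Eif3l followed at 11.34 ± 0.10, 11.26 ± 0.04 and 11.14 ± 0.03. The lowest, Eif3f, was tied at 9.17, and all 11 means were above the stricter level of 9.16.

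Among genes of the helicase eIF4A and its helpers, 5 of 6 were above background. Eif4a2 was at 10.67, 10.66 and 10.82 and Eif4a1 at 9.97, 9.93 and 9.97. Eif4a3, which marks exon junctions rather than driving initiation, was tied at 9.97. Eif4a3l1, its copy on chromosome 6, was at 5.34, 5.35 and 5.55, the lowest of all members, but was at 10.09 and called where probe sets shared with Eif4a3 were added. Eif4b and Eif4h, which stimulate the helicase, were tied at 10.82 and 9.48.

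Cap binding genes covered a wide range, with 5 of 7 above background in the group that also holds the eIF4E-binding proteins. Eif4e was at 9.48, 9.42 and 9.62 and Eif4e2, a cap-binding relative that acts mainly as a repressor, was tied at 9.87. Eif4e3 was tied at 8.57. Eif4e1b, the relative known from oocytes, was at 7.20, 7.22 and 7.07 and not called. The repressors that compete with eIF4G for eIF4E stood close to the level: Eif4ebp2 was tied at 8.29, and Eif4ebp1 at 8.03 ± 0.02 was not called (adjusted p = 0.0711, limma). Eif4ebp1 was called without replicate 2, where its other values were equal at 8.02 and the level itself was lower at 7.94. It was also called with arrays centred on their medians. Eif4enif1, which carries eIF4E into the nucleus and to sites of mRNA storage, was tied at 8.15 as the median of 2 unequal probe sets.

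Both measured eIF4G genes were far above background. Eif4g2, whose product lacks the eIF4E-binding part and works in cap-independent initiation, was at 11.69, 11.65 and 11.73. Eif4g3, known to be needed for male meiosis in mice, was at 11.18, 11.18 and 11.05, and was 1 of 7 untied members that were lowest on replicate 3.

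In elongation, Eef1a1 and Eef2 were high and most of their modifying enzymes were not called. Eef1a1, which delivers aminoacyl-tRNA, was tied at 13.11, the level that ranked 2 among all named genes. With a probe set shared with Mir703 and D630045J12Rik added it was at 12.21 and still called. Eef1a2, the paralog of muscle and neurons, was tied at 7.71 and not called. Eef2, the translocase, was at 11.64, 11.62 and 11.64. The exchange factor genes Eef1b2 and Eef1d were at 10.21 ± 0.07 and 9.92 ± 0.03, and Eef1e1, a partner of tRNA synthetases, was tied at 8.72. The methyltransferase genes for eEF1A and eEF2 (Eef1akmt1, Eef1akmt2, Eef1akmt3, Eef1aknmt and Eef2kmt) lay between 6.41 and 8.10, and none was called by limma's adjusted test. Eef2kmt, at 7.99, was called without replicate 3, where its other values were equal at 7.99. Eef2k, the kinase that inhibits eEF2, was at 7.08 ± 0.03 and not called. Eif5a, which helps ribosomes through difficult stretches, was at 9.85, 9.71 and 9.97, its relative Eif5a2 was tied at 8.48, and the ribosome assembly factor Eif6 at 7.78 ± 0.02 was not called.

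The 7 PABPC genes with a probe set of their own divided into 3 above 12 and 4 below 7. Pabpc4 was measured only in 4 probe sets shared with Gm12620, at 7.54 to 7.57. Pabpc1, the general cytoplasmic protein, was at 12.45, 12.36 and 12.59. Pabpc2, an intronless copy on chromosome 18 known from testis, was at 12.72, 12.67 and 12.79, and Pabpc6 on chromosome 17 was at 12.61, 12.57 and 12.73. These 3 genes followed Eef1a1 in the order of members, and each was highest on replicate 3 and lowest on replicate 2. Pabpc1l, the form known from oocytes, was at 6.95, 6.98 and 6.92. On chromosome X, Pabpc5 was tied at 6.46 and Pabpc1l2b was at 5.80, 5.77 and 5.77. Pabpc4l was tied at 6.14. Pabpc1l2b had 2 probe sets with the same values. Near-identical copies can share probes, and how far the signals of Pabpc1, Pabpc2 and Pabpc6, of Mcts1 and Mcts2, or of Eef1a1 and its pseudogenes overlap was not tested.

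The 3 PABPC partners were all above background. Paip1, the activator, was at 10.20, 9.95 and 10.38, with the largest SD of all members (0.22). Paip2, the inhibitor known to be needed late in spermatid development, was at 10.81, 10.70 and 10.87, and Paip2b was tied at 9.70.

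**Figure D3:**
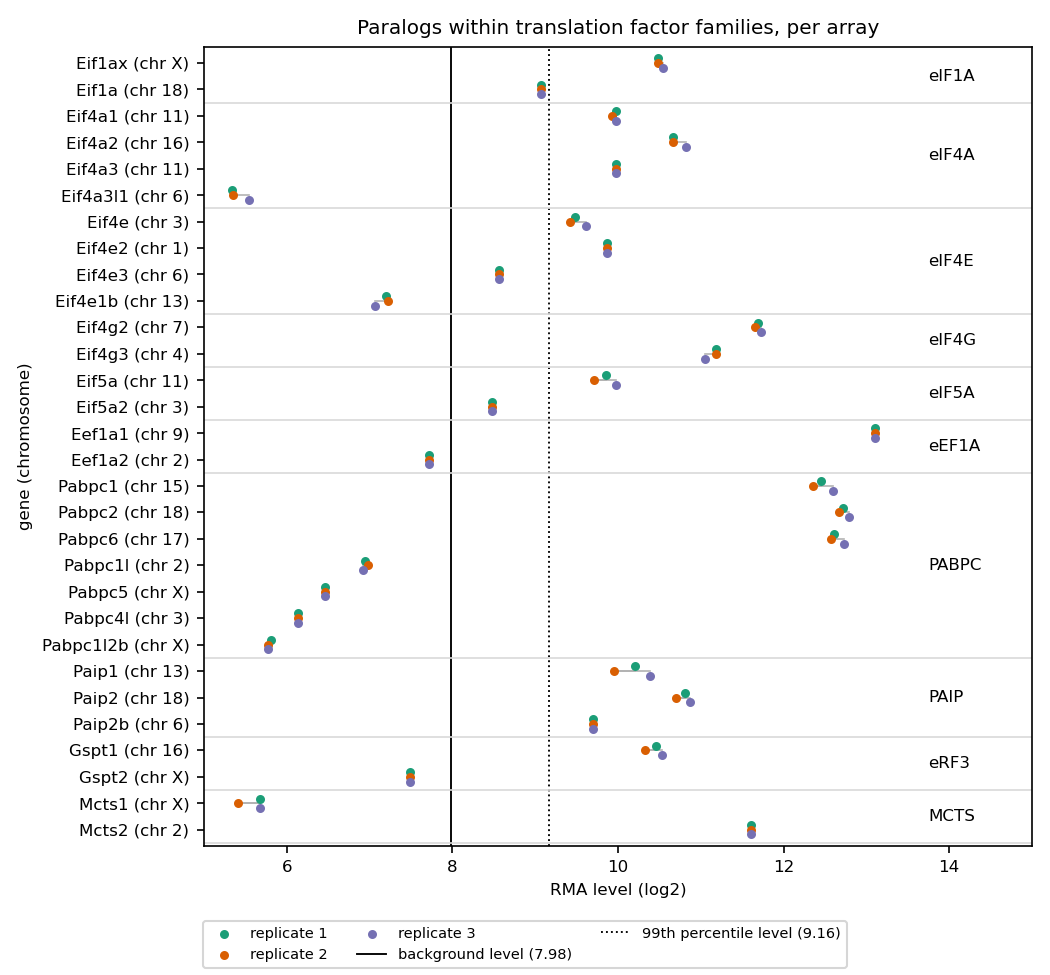
RMA level (log2) on each array (coloured points) of the paralogs in 10 translation factor families, with the chromosome of each gene, the background level of 7.98 (solid line) and the 99th percentile level of 9.16 (dotted line). Mcts2 and Mcts1 lie at 11.60 and 5.59, and the PABPC genes fall into a set above 12 and a set below 7.

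Among release and recycling genes, paralogs on chromosome X were not called while their autosomal partners were. Mcts2, an intronless copy on chromosome 2 of the ribosome recycling gene Mcts1, was tied at 11.60. Mcts1, its X-linked parent, was at 5.67, 5.42 and 5.68. Gspt1, the eRF3 gene that helps end translation, was at 10.46, 10.32 and 10.53, and the X-linked copy Gspt2 was tied at 7.48. Denr, the partner of MCTS proteins, was at 9.21, 9.16 and 9.28. Over all members 2 of 6 X-linked genes (Eif1ax and Eif2s3x) and 51 of 69 autosomal genes were above background, beside 27.6% of 739 X-linked and 37.0% of 19103 autosomal named genes. The X-linked count is near its background share. Gspt2 was called with the olfactory receptor background level, and Mcts1 under no alternative.

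Among 9 genes with more than 1 probe set, the probe sets disagreed most in Eif2s2, Eif3m, Eif4e and Eif4enif1. Of 86 member probe sets 8 carried IDs within the run of IDs of another chromosome than that of their gene (fewer than 5 of the 20 nearest named probe sets were on the gene's own chromosome), where IDs follow the genome for 97.0% of named probe sets. For Eif2s2 the probe set in the run of its own chromosome was at 8.74, 8.60 and 8.79 and the other at 11.16, 11.05 and 11.43. Eif3m was at 9.17 ± 0.03 in its own run and at 11.61 ± 0.07 in that of chromosome 1. Eif4e was at 8.64 ± 0.01 and 9.50 ± 0.10 in its own run and at 11.28 ± 0.11 in that of chromosome X. Eif4enif1 showed the opposite order, with 9.39 tied in its own run and 6.92 tied in that of chromosome 13. With probe sets of other runs left out, the levels of Eif2s2, Eif3m, Eif4e and Eif4enif1 were 8.71, 9.17, 9.07 and 9.39, the median over members was 9.28, and the same 53 members were called. Eif4a1, Eif5a and Eif4e1b then had 9.73, 9.86 and 7.15.

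**Figure D4:**
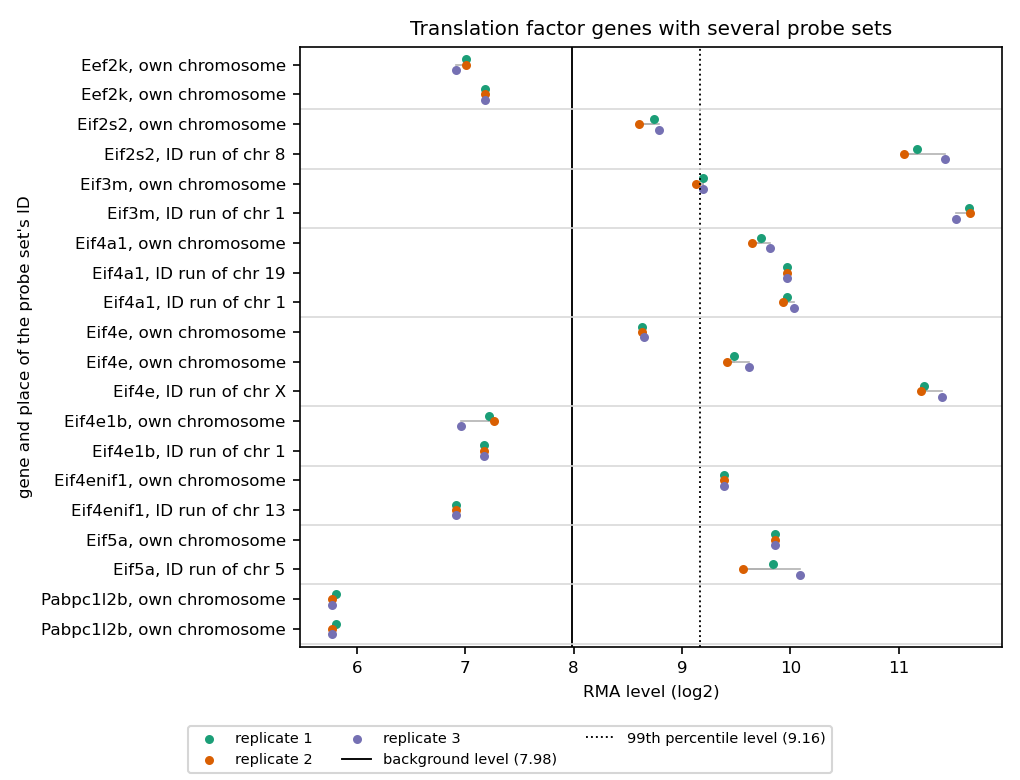
RMA level (log2) on each array (coloured points) for each probe set of the 9 translation factor genes with more than 1, labelled by whether the probe set's ID lies in the run of the gene's own chromosome. Those of Eif2s2, Eif3m, Eif4e and Eif4enif1 lie apart by more than the arrays differ.

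Untied members were most often lowest on replicate 2 and highest on replicate 3, and so were untied genes above background, but not all untied genes. Among 46 untied members, replicate 3 gave the highest value in 32 (69.6%) and replicate 2 the lowest in 26 (56.5%). Over the 4451 untied genes above background these shares were 62.0% and 58.7%. Over all 10765 untied named genes they were 33.9% and 32.0%, and replicate 2 was the highest in 39.4%. The 46 untied members include some that were not called. Among the marker lists, pachytene genes averaged 11.46, 11.41 and 11.56 on replicates 1, 2 and 3 and Leydig genes 9.74, 9.60 and 9.69. Replicate 2 had the lowest mean in every marker list but that of other tissues (6.51, 6.55 and 6.48). The part of any cell type in these differences was not tested. The median SD of untied members was 0.06, against 0.05 for all untied genes. The largest SDs after Paip1 were those of Eif2b1 (0.18), Mcts1 (0.15), Eif2s2 (0.14), Eif5a (0.13) and Eif2b4 (0.12). From replicate 2 to replicate 3 the difference was 0.44 for Paip1, the largest among members, and -0.15 for Eif4e1b, the lowest.

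**Figure D5:**
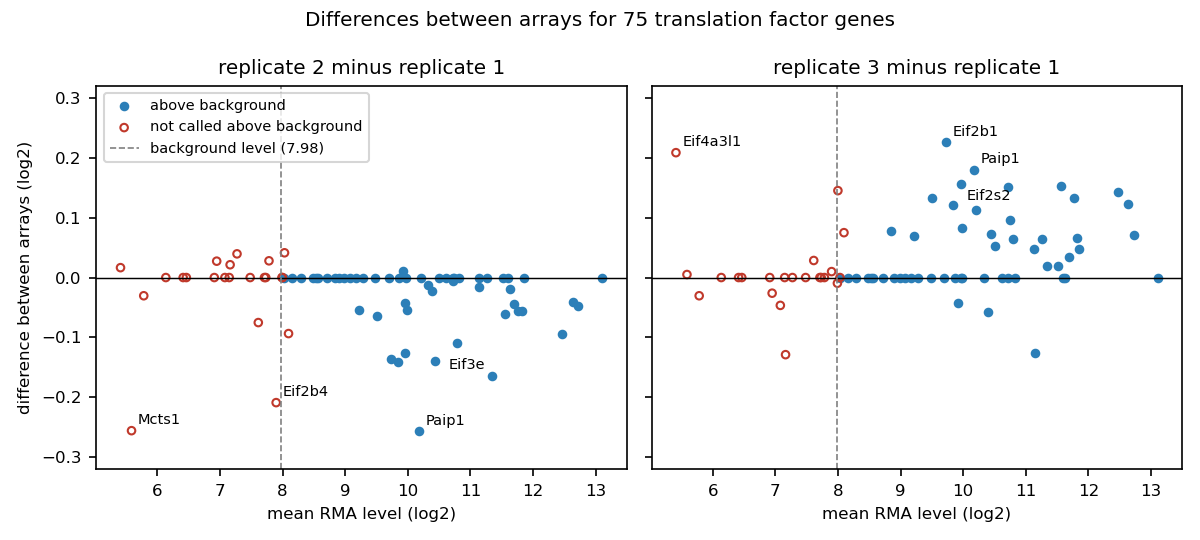
Difference in RMA level (log2) between replicates 2 and 1 (left) and replicates 3 and 1 (right) against the mean level of each of 75 translation factor genes, filled where called above background and open where not. Called members lie at or below 0 on the left, except Eef1d at 0.01, and mostly at or above 0 on the right.

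Promoter windows of 300 bases, 250 before to 50 after an annotated start, were matched for 56 members with 73 starts, several of which can belong to 1 gene. Starts of members above background had a median GC content of 63.7% and a CpG observed to expected ratio of 0.951, against 60.3% and 0.772 for starts of all array genes above background. The ETS core CCGGAAG, on either strand, was found in 20 of 54 starts of called members (37%), in 1 of 19 starts of members not called (5.26%), and in 18% of starts of array genes above background. The letters TGACG, a shorter form of the CREM motif, on either strand and also contained in TGACGTCA, were found in 27 of the 54 (50%), beside 32.3%. They were in 4 of 19 starts of members not called (21.1%). Both CCGGAAG and TGACG contain CG, and how far their shares follow the CpG content given above was not tested. Other motifs were at lower or like shares in called members: CCAAT on either strand was in 29.6% beside 38.2%, the palindromic NRF1 motif in 1.85% beside 2.42%, and TATAAA on the gene's strand in 5.56% beside 4.67%. The whole TGACGTCA was in 1 start, that of Eef2 printed above, where it lies downstream of the start, beside 3.49%. Stretches of at least 5 pyrimidines were counted on the gene's strand from a C within 2 bases of the start, also inside longer runs. Such a stretch was found in 8 of the 54 (14.8%), beside 9.31%. It was in 2 of 19 starts of members not called (10.5%) and in 8.96% of all 32851 starts. Over all 32851 starts the shares were 8.86% for CCGGAAG, 20.8% for TGACG, 1.79% for TGACGTCA, 37.4% for CCAAT, 0.971% for the NRF1 motif and 8.32% for TATAAA.

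Of 81 measured genes in other lists tied to translation, 50 were above background, and the counts below stand beside the 36.6% of all named genes. Initiation helicases outside the eIF4A family were called in 6 of 6: D1Pas1, the autosomal testis copy of Ddx3x, was at 11.51 ± 0.14 and Ddx6 at 10.84 ± 0.04, while Dhx29 was at 9.27 ± 0.01 and the X-linked Ddx3x at 9.23 ± 0.12. Nuclear poly(A) binding and polymerase genes were called in 8 of 9, from the testis polymerase Papolb at 12.05 ± 0.14 and Tent4b at 11.80 ± 0.03 to Tent4a tied at 8.30, with Pabpn1l tied at 6.38 and not called. In termination and rescue 5 of 7 were called, led by the recycling factor Abce1 tied at 11.05 and Hbs1l at 10.75 ± 0.04, with Zfp598 tied at 7.79 and Pelo at 7.08 lowest. Selenocysteine genes were called in 6 of 8, from Sephs2 at 10.55 ± 0.05 and Eefsec tied at 8.92 to Secisbp2 at 8.04 ± 0.04 and Trnau1ap tied at 7.42, both not called.

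The remaining lists cover signalling to translation, partners at the mRNA ends, mitochondria and factor modification. In the mTORC1 and MNK list 8 of 14 were above background, with the eIF4A inhibitor Pdcd4 at 11.06 ± 0.21 and the 5′ tract binding protein Larp1 tied at 10.77 highest, and Akt1s1 and Mlst8 tied at 7.42 and 7.21. In the list of eIF2 phosphatases, kinase regulators and ATF4 response genes 6 of 11 were called, led by Asns tied at 11.47 and the kinase inhibitor Dnajc3 at 11.31 ± 0.03, with Trib3 at 6.97 ± 0.06 and the phosphatase subunit Ppp1r15a tied at 6.75. Other cap and poly(A) partners were called in 5 of 8, from Ncbp1 at 11.01 ± 0.09 and Gigyf2 at 10.78 ± 0.07 to Ctif at 7.13 ± 0.10 and Gigyf1 tied at 6.65. Mitochondrial translation factors were called in 4 of 10, near the share of all genes, from Mrrf at 10.16 ± 0.03 and Mtif2 at 9.61 ± 0.14 to Tsfm tied at 7.38 and Mtrf1l at 7.30 ± 0.01. Of the genes for hypusine on eIF5A and diphthamide on eEF2, 2 of 8 were called, a smaller share than that of all genes. These were Dph3 and Dnajc24, tied at 9.46 and 8.76. Dph2 and the hypusine enzyme Dohh were lowest, tied at 6.91 and 6.45. Neither Dohh nor the other hypusine gene, Dhps (tied at 7.26), was called.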

How the data were processed

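The deposited values are log2 probe set levels for each of the 3 samples. The authors computed them by RMA in Affymetrix Power Tools, using an mm9-based annotation, per the design text in the labels. Genes were named through the platform annotation (21789 of 35556 probe sets name 1 gene), with symbols and chromosomes updated by Entrez identifier to GRCm38.p6 (21698 matched). Where several probe sets named a gene, their median was used. Calls came from limma 3.58.1 in R 4.3.3 (intercept model, empirical Bayes, one-sided against the background level, Benjamini-Hochberg over 19938 genes, threshold 0.05). The call was also run on simulated arrays with normal error, a fixed level and no spread in tied genes. That run cannot test the choice of background level or the calls of tied genes. Values on each array are given for the 12 highest, the 8 lowest and the 6 most variable members and for paralog families. In the other lists the mean is given for the 2 highest and 2 lowest genes. The members, lists and rules were chosen with earlier results of these data known. The number of arrays, 3, limits the precision. Scanner files were not used here.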

Additional observations from a re-analysis of the deposited data

Results flagged for a closer look

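Probe sets that name several genes, among them a translation factor, were outside the gene levels above. Of 15 such probe sets 10 were above the background level of 7.98 on all 3 arrays, and these are given for that signal, which cannot be assigned to 1 gene. The probe set naming Eef1a1 with Mir703 and D630045J12Rik was at 11.31. The pair naming Eif3j1 and Eif3j2, copies of an eIF3 subunit gene, had a median of 10.82. For Eif4a3 with its copy Eif4a3l1 the median was 10.37, whereas the probe set of Eif4a3l1 alone was at 5.41. The 4 probe sets shared by Eif1a and its many predicted copies had a median of 9.74, and the probe set of Ankhd1 and the eIF4E-binding protein gene Eif4ebp3 was at 8.62. The 4 probe sets naming Pabpc4 and Gm12620 lay lower, from 7.54 to 7.57, and the probe set of Eif5 and Snora28 was lowest at 5.22.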

How the results depend on the processing

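The count of 53 members above background moved to 40 at the 99th percentile level and 64 with the olfactory receptor background, and lay between 51 and 56 in the other settings that kept all 75 members; with probe sets in place of genes it was 62 of 86. The count of all genes was 3847 and 10958 at these levels, and that of other translation genes 29 and 73. With tied genes left out, a setting chosen after seeing the data that removes genes from the count, 32 of 46 members, 4547 of 10765 genes and 31 of 41 other translation genes were called, and the members' median was 10.08. The median was 9.70 with the highest probe set, 9.69 with probe sets of several genes added and 9.28 with only probe sets in their own chromosome's run, also chosen after seeing the data. Leaving out each replicate gave 52 to 54 members, 6662 to 7090 genes, 47 to 50 other translation genes and a median of 9.48 to 9.55. Apart from the 2 other background levels, 49 of 53 calls held in every alternative that could be fitted; Eif2b1 was lost without replicate 1, and Eif4ebp2, Eif4enif1 and Eif2b2 with probe sets of several genes added, where the background level was 8.33. Levels near 7.98 have the least certain calls. No paired analysis was possible because there is only 1 group.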
